A study of Mus musculus with 36 samples.

Results

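The Hox genes of the mouse genome were followed through the chemical conversion of fibroblasts to photoreceptor-like cells and through rod maturation. Members were all genes of the expression table whose symbol is Hox, a cluster letter from a to d and a number. They numbered 35 of the 15289 genes in the table and 35 of the 39 annotated Hox genes. Hoxb1, Hoxb13, Hoxc12 and Hoxd1 were not analysed here. The 4 clusters lie on different chromosomes (GENCODE M21, GRCm38). HoxA (11 members) spans chr6:52155590-52260880 on the minus strand. HoxB (8 members) spans chr11:96271457-96354012, HoxC (8 members) chr15:102921103-103036852 and HoxD (8 members) chr2:74668310-74748442, all on the plus strand. All 35 members are annotated as protein-coding.

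Hox genes encode homeodomain transcription factors that give cells their position along the head-to-tail axis and along the limbs. Within a cluster the genes stand in the order of the body levels they mark, with low paralogue numbers towards the head and high numbers towards the tail and the limb tips, and genes of 1 number in different clusters are paralogues. Fibroblasts keep the Hox pattern of the body site they came from, whereas the retina derives from forebrain that lies in front of the Hox-expressing part of the embryo.

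Messenger RNA was measured by RNA sequencing in 33 libraries in 11 groups, all from mice or cells labelled Strain (Nrl-GFP), in which the promoter of the rod factor Nrl drives a green fluorescent protein. Mouse embryonic fibroblasts at passage 2 (MEF, n = 3), grown in IMR90 medium, were the starting cells. Fibroblasts given photoreceptor induction medium with 5 chemicals were collected on day 5 and day 8 as intermediates and on day 11 as chemically induced photoreceptor-like cells (CiPC), with 3 libraries for each. Isolated rods spanned postnatal day 2 (P2) to P28, with 2 libraries each for P2 and P4, 3 each for P5, P6 and P14 and 4 each for P10 and P28. P5 rods were sequenced in the same series as the cultures, whereas rod libraries of other ages are taken over from an earlier series. Per the labels, cells were sorted by the promoter reporter, with no statement of how this applied to fibroblasts. The labels name neither the body region of the embryos nor separate cultures or animals behind the replicates, so p-values reflect spread among libraries that may be technical replicates. All values are the authors' normalized CPM (read abundance scaled between libraries), and their depth is unknown. Column sums ran from 719752 to 2277242, and 1.07% to 11.1% of genes were listed at 0 in a library. The fibroblast markers summed to 20867 ± 1051 CPM in MEF (mean ± SD) and the rod markers to 4.26 ± 0.241, against 6479 ± 246 CPM of rod markers in P5 rods and 337 ± 13.0 in CiPC.

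**Figure D1:**
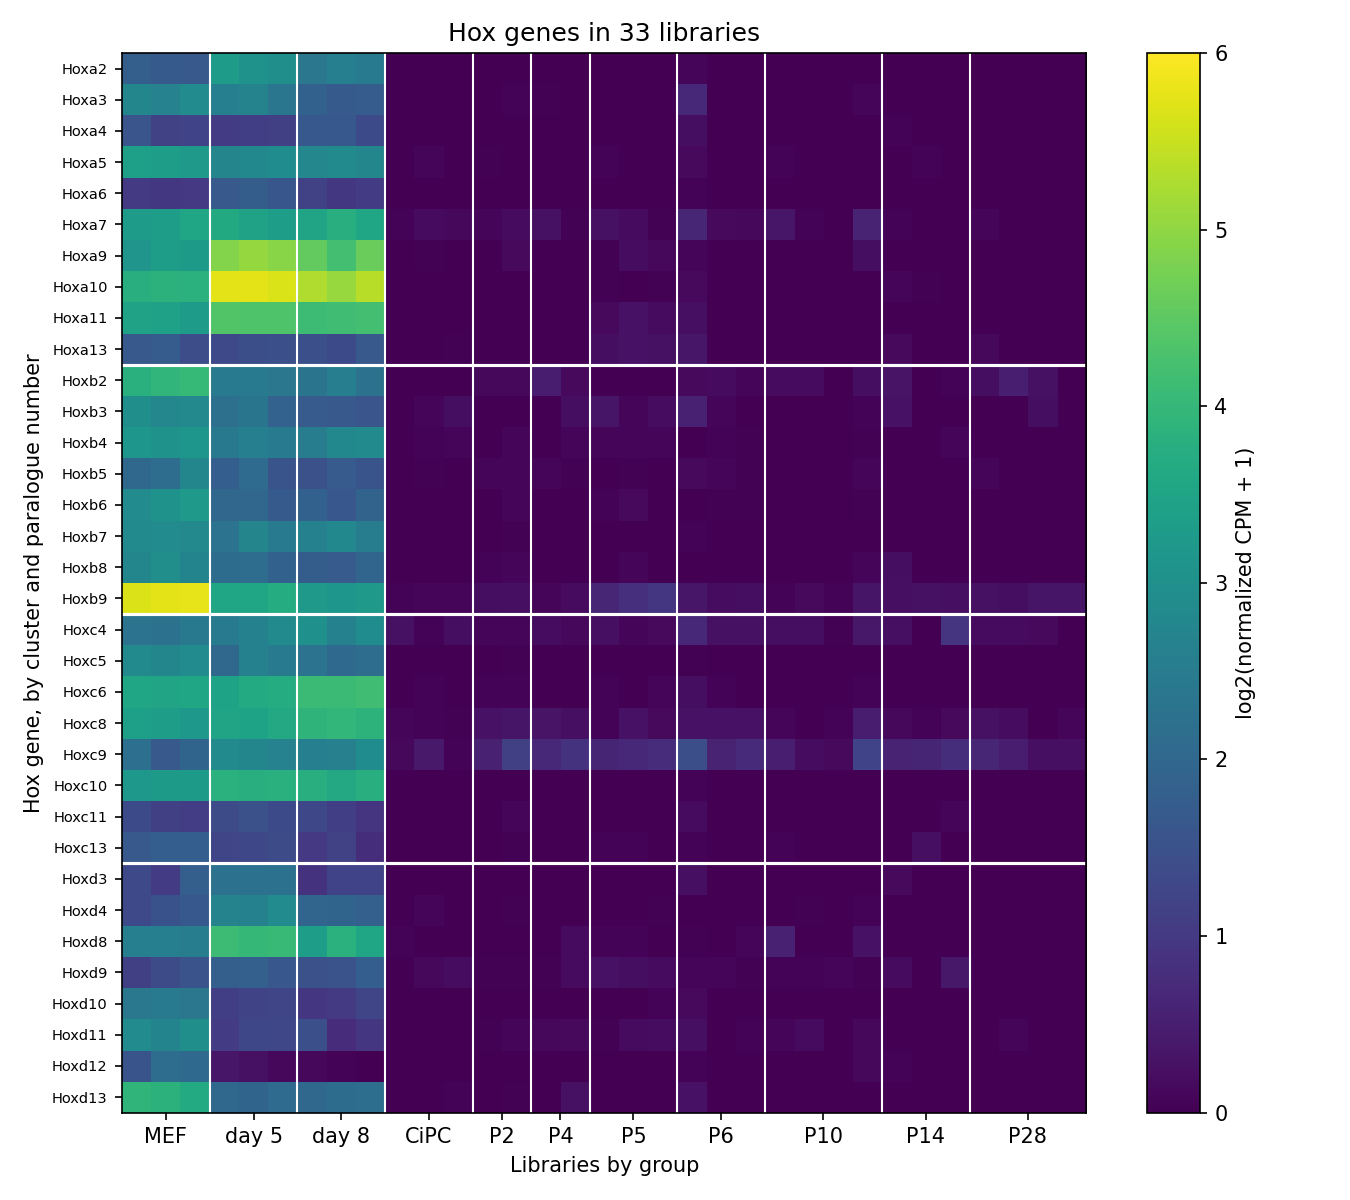
Level of 34 of the 35 Hox genes (rows, by cluster and paralogue number) in each of the 33 libraries (columns, by group), as colour on the log2(normalized CPM + 1) scale. Rows are bright in the MEF, day 5 and day 8 columns and dark in the CiPC and rod columns, where the highest value is 1.70 CPM.

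All 35 Hox genes were detected in the fibroblasts. Their summed level lay between 214 and 265 CPM in every culture library through day 8, while the shares of the clusters changed. The summed Hox level was 252.8 ± 4.24 CPM in MEF, 259.6 ± 5.01 at day 5 and 220.0 ± 6.49 at day 8 (mean ± SD, n = 3 each). In CiPC it was 0.473, 1.04 and 0.899 CPM in the 3 libraries, a mean of 0.318% of MEF. In P5 rods it was 2.76, 3.21 and 2.98 CPM, 1.18% of MEF. In MEF, HoxB held 41.3% of the summed level, HoxA 26.5%, HoxC 17.7% and HoxD 14.5%. At day 5, HoxA held 52.4% and HoxB 14.2%. These are sums of deposited values, not divided by gene length, given as a description. In bulk samples, fewer cells of a type and less RNA per cell cannot be told apart.

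**Figure D2:**
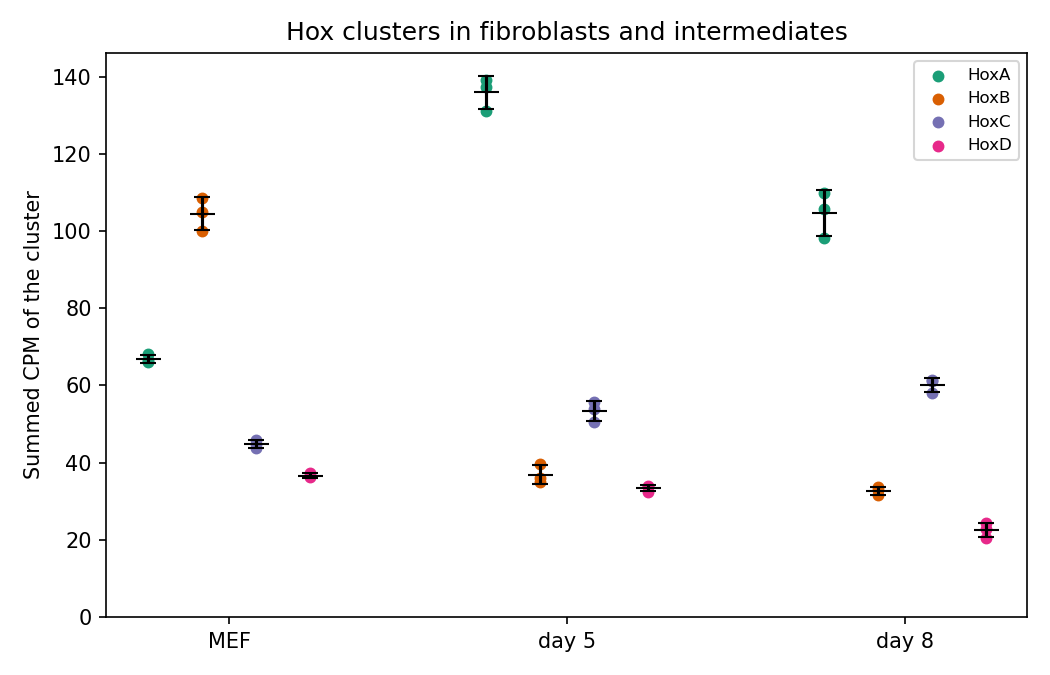
Summed CPM of each Hox cluster in the MEF, day 5 and day 8 libraries (points, with the mean and SD of 3 libraries). HoxA lies at 66.1 to 68.1 CPM in MEF and 131 to 139 CPM at day 5, while HoxB lies at 100 to 109 CPM in MEF and 34.9 to 39.7 CPM at day 5.

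The first step of the time course was read from day 5 cells set against MEF. Of the 35 members, all of them tested, 5 were higher at day 5, 8 were lower and 22 were not called (limma with Benjamini-Hochberg adjustment; a call needed a 2-fold change on the log2(CPM + 1) scale besides an adjusted p below 0.05). Over all genes tested, 14.7% were called higher and 13.7% lower, so the share of Hox genes called higher is near the background and the share called lower is above it. The median change of the members was -0.22, against 0.01 over all genes tested (log2 units, as all changes below, with SE after ±). HoxA had 3 members higher and 1 lower, HoxB 0 higher and 3 lower, HoxC none in either direction and HoxD 2 higher and 4 lower. At an unadjusted p below 0.05 with no fold limit, limma put 4 HoxC members higher and 2 lower, and 0 HoxB members higher. Replicates of the groups did not overlap for 13 members above and 16 below MEF, where 41.1% and 41.0% of all tested genes did the same. With a pseudocount of 0.1 in place of 1, 9 members were called higher, while the number called lower was within 1.5 times of 8.

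**Figure D3:**
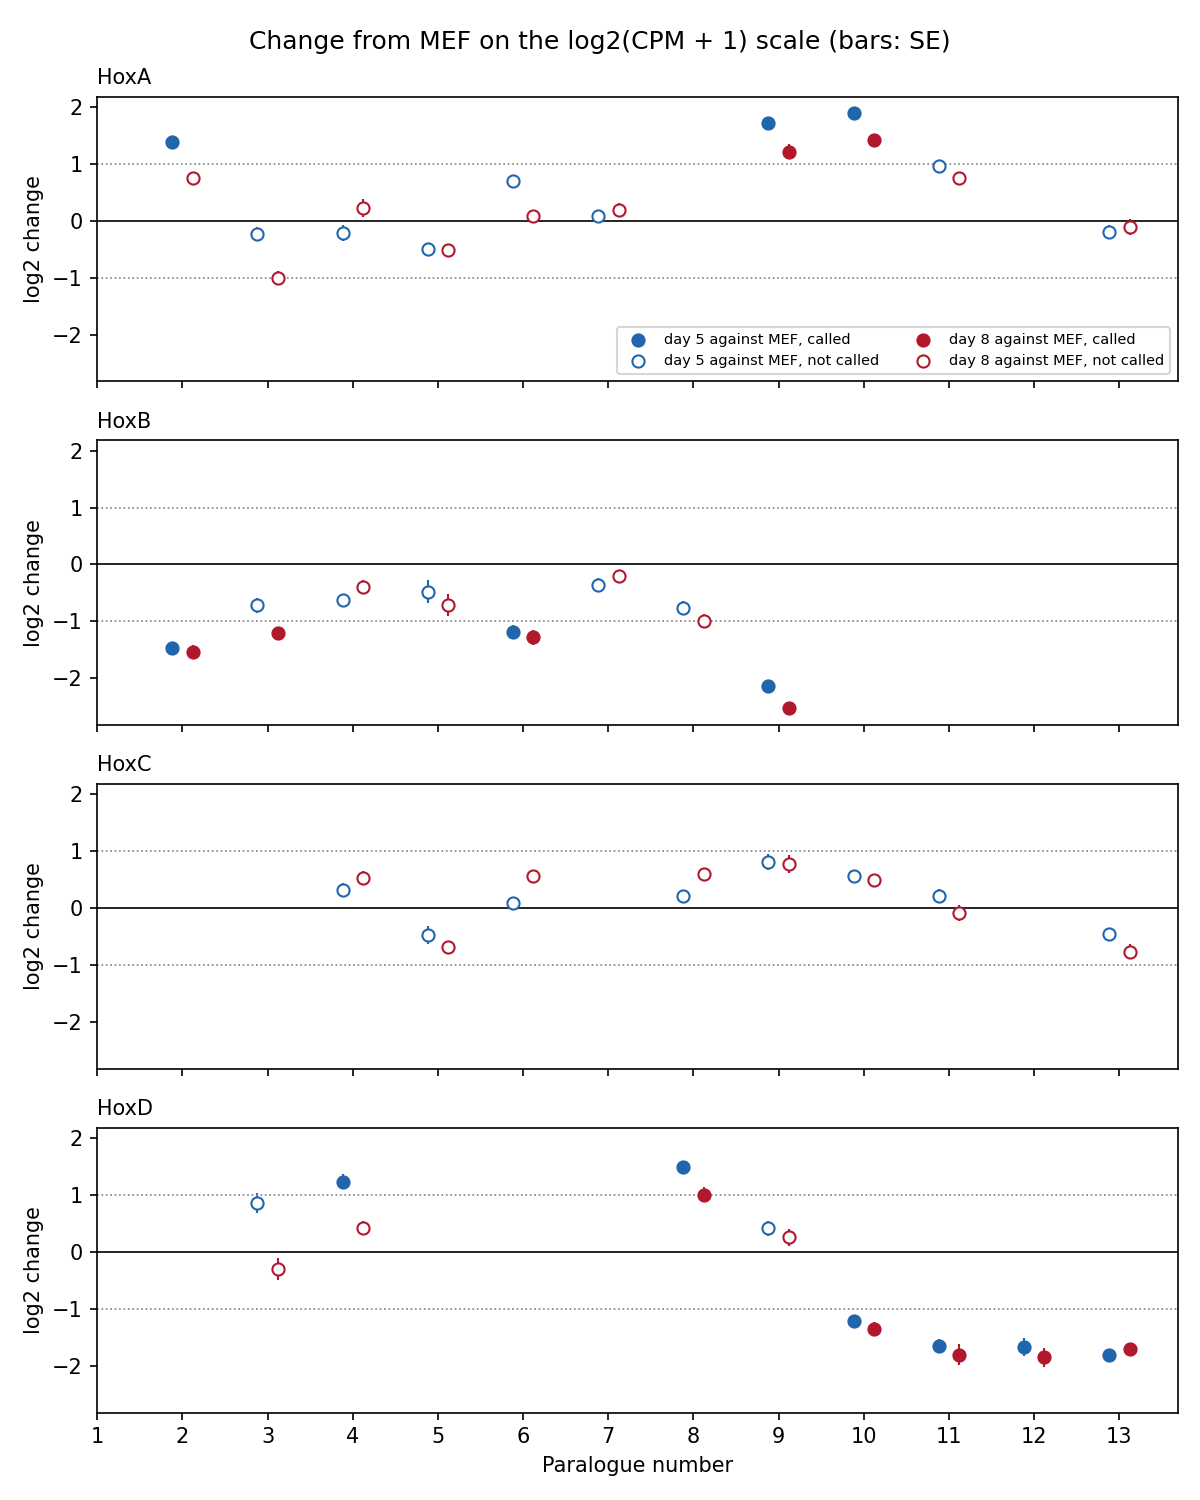
Change from MEF of 34 of the 35 members at day 5 (blue) and day 8 (red) on the log2(CPM + 1) scale (bars: SE), by cluster and paralogue number; filled points were called and dotted lines mark a 2-fold change. In HoxD the points of numbers 10 to 13 lie between -1.85 and -1.22, and the 4 lower-numbered members lie between 0.42 and 1.49 at day 5.

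In HoxA, Hoxa10, Hoxa9 and Hoxa2 rose. Hoxa10, at chr6:52231197-52240854 and a factor of hindlimb and reproductive tract patterning, was at 12.6, 13.6 and 13.3 CPM in MEF and 52.5, 52.7 and 49.8 CPM at day 5. At day 8 it stood at 38.1, 32.7 and 40.2 CPM, and it was listed at 0 in each CiPC library. Its MEF libraries lay below every day 5 and day 8 library, and it rose by 1.89 ± 0.060 at day 5 (adjusted p = 2.1e-09). Its neighbour Hoxa9, which also acts in blood progenitors, was at 7.81, 9.14 and 8.57 CPM in MEF, 28.6, 32.3 and 29.4 at day 5 and 22.7, 17.4 and 23.6 at day 8. Only replicate 2 of CiPC was above 0, at 0.0168 CPM. Hoxa9 rose by 1.71 ± 0.083 (adjusted p = 4.5e-08).

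Hoxa11, a factor of the middle limb segment and the uterus, was at 9.94, 9.80 and 8.98 CPM in MEF, 19.8, 19.3 and 19.4 at day 5 and 16.2, 16.8 and 17.5 at day 8. The groups did not overlap, yet its change of 0.96 ± 0.075 at day 5 lay just under the 2-fold limit, and with a pseudocount of 0.1 it was 1.02 and called. Hoxa2, which patterns the hindbrain and the second pharyngeal arch, was the only low-numbered HoxA member called higher. It was at 2.54, 2.26 and 2.19 CPM in MEF, 8.78, 7.42 and 6.89 at day 5 and 4.22, 5.01 and 4.62 at day 8, and rose by 1.38 ± 0.11 at day 5 (adjusted p = 1.9e-06). Another 6 HoxA members changed by -0.50 to 0.70 and were not called, and Hoxa13 at the tail end of the cluster was among them (-0.19 ± 0.12, adjusted p = 0.17).

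In HoxB, Hoxb9, Hoxb2 and Hoxb6 fell and no member rose. Hoxb9, a factor of the thoracic region at chr11:96271457-96276595, was at 50.6, 53.1 and 53.7 CPM in MEF and held 20.8% of their summed Hox level, a share not corrected for length. At day 5 it was at 10.7, 10.6 and 12.2 CPM and at day 8 at 8.51, 7.92 and 8.49. CiPC libraries held 0.0394, 0.0704 and 0.0708 CPM. The groups did not overlap, and Hoxb9 changed by -2.14 ± 0.070 at day 5 (adjusted p = 2.6e-09), the largest fall of any member on this scale. Hoxb2, a hindbrain factor, was at 13.0, 14.5 and 15.1 CPM in MEF, 4.68, 4.59 and 4.16 at day 5 and 3.99, 4.95 and 3.77 at day 8, and was listed at 0 in each CiPC library. It changed by -1.47 ± 0.093 at day 5 (adjusted p = 3.1e-07).

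Hoxb4, best known for its part in blood stem cells, was at 7.94, 7.32 and 7.86 CPM in MEF, 4.41, 5.03 and 4.42 at day 5 and 4.80, 5.94 and 6.22 at day 8. Every MEF library lay above the later ones, but the change of -0.63 ± 0.094 was under 2-fold. Hoxb6 was the third HoxB member called lower (-1.19 ± 0.13, adjusted p = 1.4e-05). The 5 HoxB members not called had changes from -0.77 to -0.35, so the mean of each of the 8 HoxB members was below that of MEF.

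HoxC had no member called at day 5, and its summed level went from 44.8 ± 1.02 CPM in MEF to 53.4 ± 2.57 at day 5 and 60.1 ± 1.92 at day 8. Hoxc6, a thoracic and forelimb-level factor, was at 10.6, 10.3 and 10.8 CPM in MEF, 10.2, 11.6 and 12.2 at day 5 and 16.01, 15.9 and 16.7 at day 8. Hoxc8, of the lower thorax, was at 9.49, 9.27 and 8.21 CPM in MEF, 10.3, 10.1 and 11.2 at day 5 and 13.9, 14.8 and 13.8 at day 8. For both genes the day 8 libraries lay above all others. Hoxc10, of the lumbar and hindlimb level, was at 8.11, 8.63 and 8.57 CPM in MEF, 13.2, 12.7 and 12.9 at day 5 and 12.7, 11.3 and 12.8 at day 8. It was above MEF in every library of both intermediates (0.56 ± 0.077 at day 5, adjusted p = 8.9e-05) without reaching 2-fold. HoxC changes at day 5 ran from -0.47 to 0.82.

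HoxD was split by position. Hoxd13, Hoxd12, Hoxd11 and Hoxd10, the neighbours at the limb-tip and tail end, fell, whereas Hoxd9, Hoxd8, Hoxd4 and Hoxd3 were above MEF in every day 5 library and Hoxd8 and Hoxd4 among them rose. By the calls, the change of direction lies between Hoxd10 and Hoxd8, 9.51 kb apart, with Hoxd9, which was not called, between them. Hoxd13, which shapes digits and genital tubercle, was at 14.3, 13.4 and 11.8 CPM in MEF, 3.02, 2.82 and 3.28 at day 5 and 3.10, 3.34 and 3.48 at day 8. It changed by -1.81 ± 0.10 at day 5 (adjusted p = 1.4e-07). Hoxd11, a factor of the forearm segment, was at 6.38, 5.54 and 6.93 CPM in MEF, 1.07, 1.46 and 1.41 at day 5 and 1.74, 0.687 and 0.941 at day 8, with a change of -1.65 ± 0.12 (adjusted p = 7.9e-07). Hoxd12 was at 1.94 to 3.44 CPM in MEF and 0.0851 to 0.277 at day 5, and Hoxd10 at 4.23 to 4.48 against 1.15 to 1.37 CPM. None of these 4 genes overlapped between MEF and day 5.

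Beyond Hoxd9, Hoxd8 was at 5.00, 5.01 and 4.76 CPM in MEF, 16.4, 15.1 and 15.6 at day 5 and 9.22, 13.2 and 10.6 at day 8. It rose by 1.49 ± 0.082 at day 5 (adjusted p = 1.0e-07). Hoxd4, a factor of the hindbrain and neck level, was at 1.48, 1.85 and 2.17 CPM in MEF, 5.37, 5.18 and 6.42 at day 5 and 2.87, 2.79 and 2.61 at day 8, and rose by 1.23 ± 0.13 (adjusted p = 1.0e-05). Hoxd3 (1.10 to 2.51 CPM in MEF, 3.74 to 3.83 at day 5) and Hoxd9 (1.19 to 1.88 CPM in MEF, 2.11 to 2.60 at day 5) were not called. Hoxd3 and Hoxd4 share 388 exon bases with each other. The annotated read-through gene Gm28230 covers 53.1% of the Hoxd3 and 39.1% of the Hoxd4 exon bases, and how the authors' quantification divided shared reads is unknown, so the values of both genes are uncertain. Gm28230, looked at after its values were seen, was at 0.534, 1.16 and close to 0 CPM in MEF and 5.48, 4.09 and 4.09 CPM at day 5, a change of 1.89 ± 0.25 (adjusted p = 6.3e-05). In all, 16 members share exon bases with another annotated gene, 10 of them on the opposite strand.

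The proximal promoters of 4 of these genes are shown because they stand on the 2 sides of the day 5 change: Hoxd13 and Hoxd10 fell, Hoxd8 and Hoxa10 rose. Each runs from 250 bases before to 50 after a RefSeq transcript start (GRCm38.p6; the most upstream one for Hoxa10, which has 2), 5′ to 3′ on the gene's strand. The windows are chr2:74667975-74668274, chr2:74691641-74691940 and chr2:74704365-74704664 on the plus strand and chr6:52240805-52241104 on the minus strand. Capitals mark matches, on either strand, to any of 6 short motifs that were searched. CTTTGAT is a motif of TCF/LEF factors. The letters TATAAA were taken for the TATA box. The CCAAT box was searched by the letters in its name. A CREB site was searched as TGACGT. The E-box used was CACGTG. Joint PBX and HOX sites were searched as TGATTNAT, where N is any base.
Hoxd13: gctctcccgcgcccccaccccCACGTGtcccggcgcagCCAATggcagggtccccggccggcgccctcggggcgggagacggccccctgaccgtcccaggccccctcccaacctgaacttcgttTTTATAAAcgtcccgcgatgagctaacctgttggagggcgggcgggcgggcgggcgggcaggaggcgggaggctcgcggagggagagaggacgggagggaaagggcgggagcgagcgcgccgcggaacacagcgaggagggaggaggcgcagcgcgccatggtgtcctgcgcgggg
Hoxd10: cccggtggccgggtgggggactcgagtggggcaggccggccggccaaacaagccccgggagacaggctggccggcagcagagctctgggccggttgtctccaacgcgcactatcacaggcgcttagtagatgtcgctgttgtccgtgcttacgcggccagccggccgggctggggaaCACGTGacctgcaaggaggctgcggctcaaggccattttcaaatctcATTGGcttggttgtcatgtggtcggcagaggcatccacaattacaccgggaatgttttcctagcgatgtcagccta
Hoxd8: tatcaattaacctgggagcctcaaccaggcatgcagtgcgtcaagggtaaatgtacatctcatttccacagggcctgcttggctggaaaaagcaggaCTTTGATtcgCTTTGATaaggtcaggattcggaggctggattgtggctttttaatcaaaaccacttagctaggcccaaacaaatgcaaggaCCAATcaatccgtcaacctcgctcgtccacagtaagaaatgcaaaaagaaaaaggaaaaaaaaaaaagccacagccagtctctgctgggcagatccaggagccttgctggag
Hoxa10: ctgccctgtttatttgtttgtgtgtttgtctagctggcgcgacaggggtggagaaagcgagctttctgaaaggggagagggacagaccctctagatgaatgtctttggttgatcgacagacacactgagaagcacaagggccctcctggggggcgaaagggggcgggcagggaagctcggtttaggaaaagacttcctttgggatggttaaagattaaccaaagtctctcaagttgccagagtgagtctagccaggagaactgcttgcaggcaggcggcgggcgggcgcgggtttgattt
The windows of the pair that fell hold 37 (Hoxd13) and 22 (Hoxd10) CpG dinucleotides and those of the pair that rose 6 (Hoxd8) and 12 (Hoxa10), with medians of 14.5 over 24 windows of 20 members and 7 over all 32851 windows. CACGTG is found in both windows that fell, once in each, and in neither of the others. It is present in 7.15% of all windows and in 20.8% of the Hox windows. CTTTGAT occurs 2 times in the Hoxd8 window and in 3.73% of all windows. Hoxd13 holds overlapping matches to TATAAA on both strands (13.6% of all windows), and CCAAT is in the 3 HoxD windows and in 37.4% of all windows. None of the 6 motifs is in the Hoxa10 window. TGACGT (7.51% of all windows) and TGATTNAT (3.22%) are in none of the 4 windows. A match is a description of letters in 4 chosen windows.

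Few members were called between day 5 and day 8. Of 33 members tested, 0 were called higher and 1 lower (limma), where 3.61% and 3.01% of all genes tested were called. At an unadjusted p below 0.05 with no fold limit, 3 members were higher and 11 lower. The 1 that fell was Hoxd3, from 3.83, 3.79 and 3.74 to 0.846, 1.31 and 1.31 CPM (-1.16 ± 0.13, adjusted p = 7.2e-05), and with a pseudocount of 0.1 Hoxd4 was called too. Hoxa10, Hoxa9, Hoxd8 and Hoxd4 were lower at day 8 than at day 5 in every library, with changes from -0.82 to -0.48. Replicates did not overlap for 14 members below and 3 above day 5, against 28.4% and 30.3% of all tested genes. The 3 above were Hoxa4, Hoxc6 and Hoxc8.

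Against MEF, the same reference libraries as above, 3 of 35 members were higher at day 8 and 9 lower, where 16.4% and 15.4% of all genes tested were called higher and lower. Replicates did not overlap for 11 members above and 17 below MEF, against 40.7% and 39.6% of all tested genes. Higher were Hoxa10 (1.42 ± 0.092, adjusted p = 6.2e-07), Hoxa9 (1.22 ± 0.13, adjusted p = 1.6e-05) and Hoxd8 (1.00 ± 0.13, adjusted p = 7.5e-05). The call of Hoxd8 was at the 2-fold limit and was lost without day 8 replicate 2 (0.88) and without MEF replicate 3 (0.98), and under both scaling alternatives. Lower were the 8 members lower at day 5 and Hoxb3, with Hoxb9 at -2.52 ± 0.074 (adjusted p = 2.5e-09).

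To rank genes against one another, levels were divided by the length in kb of the longest annotated transcript. In MEF the highest was Hoxb9 at 20.4 ± 0.634 CPM per kb, followed by Hoxc6 at 6.69 ± 0.138 and Hoxd13 at 5.29 ± 0.521, the last of which lay within its spread of Hoxa10 at 5.14 ± 0.196. At day 5 the order was led by Hoxa10 at 20.2 ± 0.635, Hoxa9 at 9.33 ± 0.606 and Hoxa11 at 8.52 ± 0.126, and at day 8 by Hoxa10 at 14.4 ± 1.52, Hoxc6 at 10.3 ± 0.290 and Hoxa11 at 7.37 ± 0.273 CPM per kb. With the length of all exons joined, Hoxb9 stayed first in MEF and Hoxa10 at day 5 and day 8, but Hoxc6 moved to 4.39 CPM per kb and rank 5 in MEF. Hoxa9 moved from rank 2 to rank 5 at day 5 (5.39 CPM per kb) and from rank 4 to rank 8 at day 8 (3.80), so the order below the first place depends on the length used.

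By paralogue number, summed over the clusters, number 10 rose from 26.0 ± 0.843 CPM in MEF to 65.9 ± 1.57 at day 5 and 50.3 ± 4.84 at day 8. Number 13 went from 17.6 ± 1.49 to 6.18 ± 0.390 and 6.15 ± 0.290 CPM, and number 9 from 65.4 ± 1.98 to 49.4 ± 1.66 and 37.1 ± 4.46. Number 8 was at 19.96 ± 1.33, 29.4 ± 0.707 and 27.6 ± 2.41 CPM. Within number 10, Hoxa10 rose and Hoxd10 fell, and within number 9, Hoxa9 rose and Hoxb9 fell at day 5.

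Marker levels of other cell types moved alongside these changes. From MEF to day 5 the macrophage sum went from 235 ± 9.70 to 12.1 ± 0.870 CPM with 8 of 8 markers called lower, the smooth muscle sum from 11205 ± 132 to 420 ± 9.92 CPM with 5 of 5 lower, and 4 of the 4 Schwann and neural crest markers in the table were lower. The fibroblast sum went from 20867 ± 1051 to 49215 ± 1046 CPM with 8 of 10 higher and 1 lower, and the adipocyte sum from 29.0 ± 1.495 to 1455 ± 14.6 CPM with 6 of 6 higher. The skeletal muscle sum was 271 ± 18.3 CPM in MEF and 377 ± 8.55 at day 5. Their part in the Hox changes was not tested.

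In CiPC the Hox genes were listed at or near 0. Of the 35 members, 18 were listed at 0 in all 3 libraries and 17 had a value above 0 in at least 1, the highest being 0.335 CPM for Hoxc9 in replicate 2. The 3 libraries listed 29, 22 and 24 members at 0. Every MEF library lay above every CiPC and rod library for each of the 35 members, where 42.7% of all genes tested were separated downwards and 38.6% upwards in CiPC against MEF. Against MEF, 34 were tested and 34 were lower with limma, where 17.2% of all genes tested were called lower and 16.5% higher. Hoxa6, at a mean of 0.987 CPM in MEF, did not pass the filter. Changes ran from -5.66 ± 0.089 for Hoxb9 to -1.19 ± 0.11 for Hoxc11 on a scale that shrinks changes of genes near 0. Members could pass the filter only through MEF, so the count adds nothing to the values of the libraries themselves. The step from day 8 to CiPC held the fall: the summed level went from 214 to 227 CPM at day 8 to at most 1.04 CPM in CiPC. The 27 members tested could pass the filter only through day 8, so that all 27 were called lower adds nothing (16.6% of all genes tested were called lower and 15.2% higher). For 34 members every CiPC library lay below every day 8 library and for 0 above, against 40.1% and 36.8% of all tested genes.

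**Figure D4:**
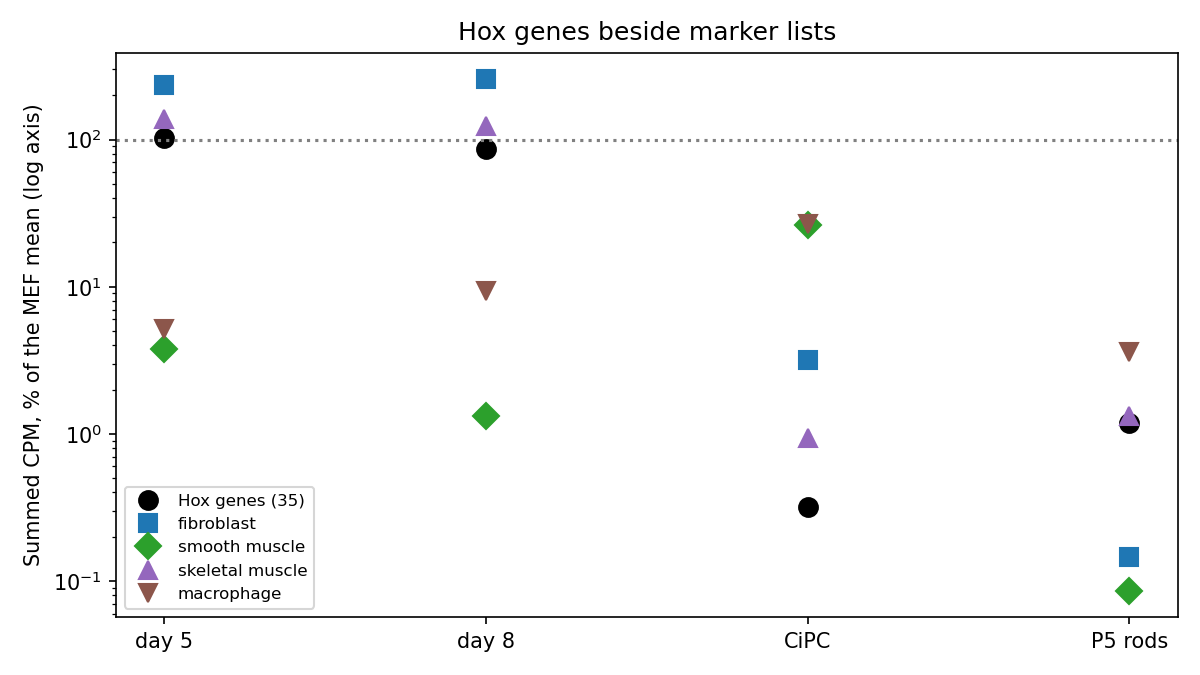
Summed CPM of the 35 Hox genes and of 4 marker lists as a percentage of the MEF mean (log axis) at day 5, day 8, in CiPC and in P5 rods. In CiPC the Hox sum lies at 0.318% and the fibroblast sum at 3.15%, while smooth muscle and macrophage sums lie at 26.5% and 26.6%. The smooth muscle sum in CiPC is mostly Acta2 and Tagln, and the fibroblast sum is mostly Fn1.

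Marker lists of other cell types are given beside the Hox sum. In CiPC, fibroblast markers summed to 658 ± 31.4 CPM (622 to 679, against 19676 to 21661 in MEF), which is 3.15% of MEF. Of the 10 markers, 8 were called lower and none was at 0 in all libraries. Fn1 held most of the CiPC fibroblast sum, at 537 against 11453 CPM in MEF. Col1a1 (41.2 against 4545 CPM) and Col1a2 (26.1 against 3210) lay further below MEF, while Pdgfra was level (9.13 against 9.01). The smooth muscle sum was at 26.5% of MEF, the macrophage sum at 26.6%, the Schwann and neural crest sum at 6.47% and the skeletal muscle sum at 0.934%. Within the smooth muscle sum, Acta2 (2029 against 6741 CPM in MEF) and Tagln (914 against 3715) held most of the CiPC level. Cnn1 (19.9 against 440 CPM), Myh11 (1.30 against 105) and Des (0.721 against 204) lay further below MEF. The endothelial sum was above MEF, at 629 ± 27.9 against 30.0 ± 0.956 CPM, but nearly all of it was Kdr. Kdr rose by 4.56 ± 0.054 in CiPC against MEF. Pecam1 (0.759 against 1.55 CPM in MEF) and Erg (0.199 against 0.630) were below MEF in every CiPC library. Tek (1.32 against 1.51 CPM) and Cdh5 (0.878 against 0.725) overlapped with MEF. The endothelial sum in CiPC therefore reflects Kdr and not the marker list as a whole. The percentages of MEF compare sums with different floors of detection and were not tested against one another.

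**Figure D5:**
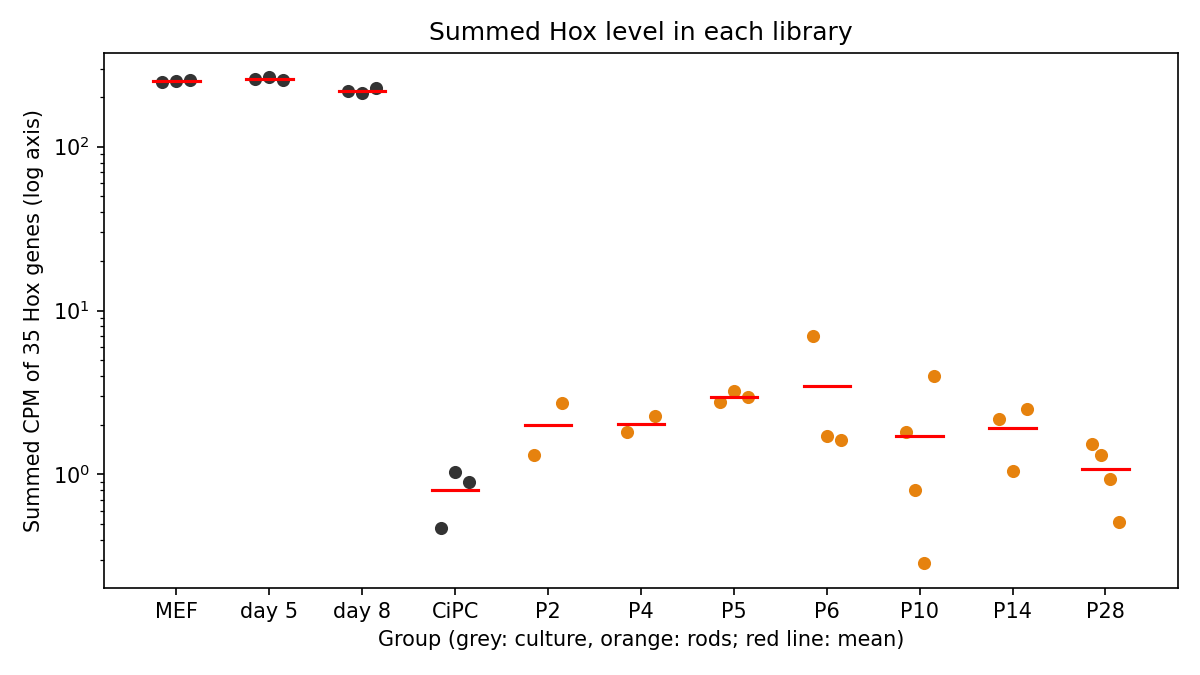
Summed CPM of the 35 Hox genes in each library (points) with the group mean (red line), on a log axis. Cultured MEF, day 5 and day 8 libraries lie between 214 and 265 CPM, CiPC between 0.473 and 1.04 CPM and rods between 0.286 and 7.03 CPM.

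Rods held traces of Hox transcripts at every age. No member reached a mean of 1 CPM in a rod group, and 3 of 735 values in rod libraries were at 1 CPM or more. All 3 belonged to Hoxc9, which is named here because of them: 1.19 CPM in P2 replicate 2, 1.70 in P6 replicate 1 and 1.29 in P10 replicate 4, with 0.115 to 0.837 CPM in the other 18 rod libraries. Hoxc9 was the only member tested for rod age, with a change from P2 to P28 of -0.49 ± 0.25 that was not called (limma adjusted p = 0.086). Over all genes tested, 21.4% were called higher and 32.6% lower with age, and quantile scaling turned the Hoxc9 value to 0.44, still not called, while it moved the share of higher among called genes from 39.7% to 50.9%.

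P5 rods were compared with MEF, which again served as the reference. The 34 members tested could pass the filter only through MEF, so that all 34 were called lower adds nothing (30.5% of all genes tested were lower and 24.5% higher). All 35 were below MEF in every P5 library and 0 above, where 47.7% and 43.3% of all tested genes were separated in these directions. In P5 rods Hoxb9 was at 0.567, 0.793 and 0.921 CPM, against 0.0368 to 0.295 CPM in the 18 rod libraries of other ages. The groups did not overlap. The P5 libraries are the ones from the same series as the cultures, so age and series cannot be told apart. Between CiPC and P5 rods no member passed the filter, and 8 were lower in every CiPC library than in every P5 library with 0 higher, where 43.7% and 42.7% of all tested genes were separated in the same way. Among them were Hoxa9, Hoxa11, Hoxa13, Hoxb4, Hoxb9, Hoxc9 and Hoxd11, and all 8 were below 1 CPM in both groups.

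P6 replicate 1 and P10 replicate 4 held more Hox signal than the other libraries of their age. In P6 replicate 1 the summed Hox level was 7.03 CPM, against 1.71 and 1.63 CPM in the other P6 libraries, and the P6 mean of 3.45 became 1.67 CPM without it. It was the highest P6 library for 28 members and the highest of all rod libraries for 20, and it listed 4 members at 0 against 22 and 23. The same library listed 164 genes of the whole table at 0, against 420 and 476, and its summed macrophage markers were at 39.3 CPM against 8.07 and 6.68. Its fibroblast sum was 101 CPM against 70.8 and 53.4, its endothelial sum 253 against 151 and 156 and its Muller glia sum 624 against 432 and 437. In rods the first of these sums can rest mostly on a single marker. At P2, Kdr held 282 of the mean endothelial sum of 286 CPM and Fn1 84.9 of the mean fibroblast sum of 105 CPM. The endothelial and fibroblast sums are therefore no measure of the cell types as a whole. In P10 replicate 4 the summed Hox level was 3.99 CPM, against 1.80, 0.799 and 0.286 CPM in the other P10 libraries, and the P10 mean of 1.72 became 0.963 CPM without it. It listed 15 members at 0, against 23, 27 and 30, and 241 genes of the whole table, against 411 to 805. Its rod marker sum was 34895 CPM, against 71689 to 85897 in the others, while its macrophage sum of 12.3 CPM lay within their range of 9.78 to 29.3. Its fibroblast sum was 71.5 CPM against 48.9 to 65.4, its Schwann and neural crest sum 13.4 against 3.03 to 7.66 and its smooth muscle sum 5.20 against 2.98 to 3.34. Its Muller glia sum was lower, at 571 CPM against 665 to 761, and its endothelial sum was 101.6 against 102.4 to 118.9. The part of these values in the Hox levels was not tested.

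Genes that act with or upon Hox genes moved in both directions. Hox proteins bind DNA together with TALE homeodomain partners, Polycomb proteins keep silent clusters repressed, Trithorax proteins keep them active and retinoic acid and Cdx factors switch them on in the embryo. All list counts that follow stand against 14.7% of all genes tested called higher and 13.7% lower at day 5, and 16.5% higher and 17.2% lower in CiPC, both against MEF. Of the 9 TALE genes, 8 were tested at day 5, with 1 higher and 0 lower (6 higher and 1 lower at an unadjusted p below 0.05 in limma), and in CiPC 3 of 9 were higher and 2 lower. Pknox2 stood at 7.56 CPM in MEF and went to 17.9 by day 5 and to 32.0 in CiPC (1.96 ± 0.12 in CiPC against MEF, adjusted p = 7.0e-07), and Meis1 and Pbx4 were the others that rose in CiPC. Meis2, a common Hox partner, was among those that fell in CiPC (-1.76 ± 0.095). Under quantile scaling the day 5 count of TALE genes higher was 0, and 1 in place of 2 was lower in CiPC.

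Of 25 Polycomb genes, 4 were higher and 1 lower at day 5, and 5 were higher and 0 lower in CiPC (10 higher and 6 lower at an unadjusted p below 0.05 in limma), with shares called higher close to those of all genes. The chromodomain reader Cbx7 went from 1.63 CPM in MEF to 8.96 in CiPC (1.93 ± 0.15, adjusted p = 2.5e-06). Ezh2, the H3K27 methyltransferase, was at 24.0 and 81.2 CPM (1.73 ± 0.15) and Phc1 at 20.4 and 60.1 CPM (1.51 ± 0.092). Of the 11 Trithorax and H3K27 demethylase genes, which fill 12 rows of the table, 0 were called at day 5 (3 higher and 2 lower at an unadjusted p below 0.05 in limma) and 1 rose in CiPC: Psip1, at 53.3 CPM in MEF and 201 in CiPC (1.89 ± 0.078, adjusted p = 4.4e-08).

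Upstream signals of Hox genes were represented by a list of 21 genes, 17 of them in the table. Cdx1, Cdx2, Cdx4 and Cyp26c1 were not in it. The counts therefore cover retinoid genes and Gdf11 and no Cdx gene. At day 5, 16 were tested, with 5 higher and 1 lower, and 2 in place of 1 were lower without MEF replicate 1, under quantile scaling or with a pseudocount of 0.1. In CiPC 4 were higher and 5 lower. The retinoic acid carrier Crabp2 went from 30.1 CPM in MEF to 60.6 by day 5 and to 0.425 in CiPC (-4.45 ± 0.10). Among the 4 that rose in CiPC were Aldh1a1, an enzyme that makes retinoic acid, Cyp26a1, one that degrades it, and the receptor Rarb. Aldh1a1 went from 14.6 CPM in MEF to 642 in CiPC (5.37 ± 0.080, adjusted p = 1.5e-10), and Cyp26a1 at 0.0707 and 17.6 CPM (4.12 ± 0.11).

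Of 27 other positional factors of mesenchyme, 21 were lower in CiPC than in MEF and 1 higher (26 tested), where 17.2% of all genes tested were lower and 16.5% higher. The limb mesenchyme factor Prrx1 went from 298 CPM in MEF to 401 by day 5 and to 9.84 in CiPC (-4.79 ± 0.11, adjusted p = 1.2e-09). Alx4 was at 34.1, 9.42 and 0.500 CPM (-4.56 ± 0.14) and Tbx15 at 44.7, 190 and 1.11 CPM (-4.44 ± 0.087). The exception was Tbx2, which is also a factor of the dorsal retina, at 12.04 CPM in MEF and 96.3 in CiPC (2.90 ± 0.091). At day 5 the list had 7 higher and 4 lower. Of the homeobox factors of the head and eye, 9 of 9 in the table were higher in CiPC than in MEF. Six3 was at 0.373 and 130 CPM (6.58 ± 0.087) and Pax6 at 1.06 and 161 CPM (6.30 ± 0.083). At day 5, 1 of these 9 passed the filter and it was not called.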

How the data were processed

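RNA was measured in 33 libraries; 3 listed P3 rod samples were not analysed here. Per the submitters' processing notes, kallisto was the quantifier. Its version, its index, the strand setting and the genome build were each not given in the sources used here. In the deposited table each value is a normalized CPM signal of 1 gene in 1 library, and how the authors scaled it is also unstated. The counts behind it are unknown, so no count model, depth or counting interval could be had. The table's genes all reach at least 0.593 CPM in their third-largest library.

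The deposited values were put on the log2(CPM + 1) scale and tested with limma 3.58.1 (trended variances) in R 4.3.3. Genes with at least 1 CPM in at least 3 libraries of a fit were tested, or 2 for rod age and where a group was left with 2 libraries. Each fit held the groups compared, covered the whole table and was adjusted over it by Benjamini-Hochberg. A call needed a 2-fold change besides an adjusted p below 0.05. Rod age was a slope on log2 of age over P2 to P28 without P5. The procedure was tested on simulated data. Changes were simulated only in genes above a minimum level, so that test does not cover Hox members at lower levels. Alternatives covered the pseudocount, filter, scaling, replicate block, one shared fit and each library left out.

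Gene positions came from GENCODE M21 (GRCm38), in which all 35 members were matched, and promoters from RefSeq GRCm38.p6. The members and lists were chosen with earlier results of these data known. Named with values in every culture library were the 3 members of each cluster with the highest mean in a culture group, and members called against the majority of their comparison. Other genes of a list were named by the largest change in CiPC against MEF (up to 3) and where they moved against the list. Genes named outside that rule are described as such, as context or by range. A few results that the rule would name are not reported here.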

Additional observations from a re-analysis of the deposited data

Results flagged for a closer look

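In P10 and P28 rods (n = 4 each), 18 groups of values were examined. A single library stood apart from the others in 3 of them, all in P28. Chance singles out about 1 in 20 among values that are not tied. In 2 of the 3 the other libraries are all listed at 0, so any value above 0 stands apart and the chance rate does not hold. The summed HoxA level was 0.216 CPM in replicate 1 and listed at 0 in the others. The summed HoxD level was 0.0732 CPM in replicate 2 and listed at 0 in the others. Hoxc4 was listed at 0 in replicate 4 and at 0.116 to 0.131 CPM in the others. All of these values lie below 1 CPM.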

How the results depend on the processing

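Direction was compared gene by gene only for a chosen set of Hox members, and no called value among them was reversed under any alternative run. For other called members, such as Hoxb6, Hoxb3 and Hoxd3, only the counts of calls were compared. With a pseudocount of 0.1 the members called higher at day 5 against MEF went from 5 to 9 and those called lower at day 8 against day 5 from 1 to 2. All other counts of members were within 1.5 times of the reported ones under the filter, scaling, shared fit, rod substitution and rod age alternatives. Leaving out one library gave 5 to 6 members higher and 8 lower at day 5, 2 to 3 higher and 9 to 11 lower at day 8 against MEF, and 28 to 31 lower in CiPC against day 8. With a library left out the filter asked for 2 libraries in place of 3, so more members could be tested. The range of 28 to 31 therefore lies above the reported 27 and does not measure dependence on a library. Same-numbered libraries showed no common deviation (30 pairs of groups and numbers, correlations from -0.405 to 0.277, 5 of them over 0.1). Differently numbered libraries gave -0.462 to 0.485. With 3 libraries in a group such correlations cannot exclude a shared batch, so whether the numbers pair libraries cannot be told. With the replicate block, the counts were again 5 higher and 8 lower at day 5, 3 and 9 at day 8 against MEF, and 34 lower in CiPC. Hoxd8 at day 8 against MEF was 0.80 with quantile and 0.99 with median-of-ratios scaling, both under the limit. Neighbours of the clusters within 200 kb in place of 500 kb numbered 1 higher (Gm28230, inside HoxD) and 2 lower at day 5 and 0 and 2 in CiPC. With joined exon lengths, Hoxa10 was at 15.8 CPM per kb at day 5 and 11.3 at day 8, Hoxa9 at 5.39 at day 5 and Hoxc6 at 6.74 at day 8. Counts for the gene lists under each alternative and the P6 mean without replicate 1, the P10 mean without replicate 4 and the neighbours without genes inside the clusters were added after the data were seen. Depth is unknown, so how far a value under 1 CPM differs from 0 could not be assessed.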

Other observations

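The neighbours of the Hox clusters on the chromosome were also counted. Of 42 protein-coding genes within 500 kb of a cluster, 40 were tested at day 5 against MEF, with 4 higher and 11 lower and a median change of -0.02. These 42 include 2 genes inside the clusters, 5730596B20Rik and the read-through gene Gm28230, and without them 3 were higher and 11 lower of 38 tested, with a median of -0.08. In CiPC against MEF, 3 were higher and 8 lower of 37 tested, with a median of -0.20, against -2.79 for the tested Hox members and -0.05 for all genes tested. Under quantile scaling 5 in place of 3 were higher in CiPC. The phosphatase inhibitor Ppp1r1a went from 1.495 CPM in MEF to 11.8 by day 5 and to 64.1 in CiPC (4.71 ± 0.11, limma adjusted p = 1.5e-09). Pde1b, a phosphodiesterase, rose by 1.90 ± 0.11 and Gngt2, a cone transducin subunit, by 1.60 ± 0.13 in CiPC. The fibronectin receptor subunit Itga5 went from 948 CPM in MEF to 171 by day 5 and to 75.2 in CiPC (-3.64 ± 0.063). Skap1, an adaptor of T cell adhesion, went from 6.16 CPM in MEF to 0.137 in CiPC.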
